A study of Homo sapiens with 15 samples.

Results

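The 7 genes described here are the receptors and ligands through which the cytokines TRAIL and FAS ligand start cell death, out of 730 genes on the panel. They were chosen by symbol, namely every gene whose name starts with TNFRSF10 together with FAS, TNFSF10 and FASLG, and they were selected on earlier results of these data in which FAS was raised by 5-fluorouracil (5-FU) and TNFRSF10A and TNFRSF10D were raised by thymoquinone (TQ). FAS, TNFRSF10A and TNFRSF10B are the 3 signalling receptors, TNFRSF10C and TNFRSF10D the 2 decoy receptors, and TNFSF10 (TRAIL) and FASLG the 2 ligands. The study asked how SARB, a hybrid molecule in which a TQ derivative and a 5-FU derivative are joined by an ester bond, acts on colorectal cancer cells beside its parent drugs. RNA barcodes of a cancer pathway panel were counted without amplification in HCT116, an established human colon carcinoma line, after 24 h of treatment. There were 15 samples in 5 groups of 3: untreated control cells, 40 µM TQ, 15 µM 5-FU, Combi (35 µM TQ given with 35 µM 5-FU as separate compounds) and 35 µM SARB. All groups share the one cell line and its serum-containing medium, so no group stands for other colon tumours, and p-values measure the spread between 3 samples a group.

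Trimeric ligand binding to FAS, TNFRSF10A (DR4) or TNFRSF10B (DR5) brings together the death domains inside the cell, where the adaptor FADD recruits caspase-8. TNFRSF10C binds TRAIL from a lipid anchor with no death domain, and TNFRSF10D carries a truncated one, so both can hold the ligand without passing on the death signal. Transcripts of FAS and of several TRAIL receptors are known to be raised by DNA-damaging drugs.

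FAS lies on chromosome 10, FASLG on chromosome 1 and TNFSF10 on chromosome 3. Because FAS was far above control in 3 of the treated groups, its promoter is shown, as the 250 bases that end just before 1 of its RefSeq start sites (GRCh38.p14, chr10:88991181-88991430, plus strand). Capitals mark 2 GC boxes (GGGCGG, read on either strand), which start at positions -63 and -52 counted from that start site.
FAS promoter: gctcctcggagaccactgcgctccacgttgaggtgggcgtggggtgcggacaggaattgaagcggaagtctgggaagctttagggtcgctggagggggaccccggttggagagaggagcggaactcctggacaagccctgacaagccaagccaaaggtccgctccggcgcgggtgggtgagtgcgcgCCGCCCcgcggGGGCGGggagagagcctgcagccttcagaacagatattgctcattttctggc
RefSeq lists 3 such windows for FAS, and this one was picked after its matches were seen, as the 1 with 2 GC boxes where the others held 1 each. A GC box was present on either strand in 42.6% of 35116 promoter windows of this length, and the match is a description of the letters and not a bound site.

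Raw counts were divided by a factor from the geometric mean of 40 housekeeping genes, and these values are called scaled counts here. Endogenous totals ran from 135017 to 607782 counts a sample. The background limit of a sample, the mean plus 2 SD of its 8 negative control probes, lay between 5.43 and 41.9 scaled counts. All 5 receptors were above the limit in 15 of 15 samples, FASLG in 4 and TNFSF10 in 1. All 9 epithelial and colon line markers on the panel were above the limit in every sample, against at most 2 of 6 blood cell markers and at most 1 of 5 fibroblast markers in all samples of a group. Under this scaling the middle gene of all 730 had a log2 fold change, treated over control, of -0.47 with TQ, -0.27 with 5-FU, -0.10 with Combi and -0.41 with SARB, whereas TMM scaling, which assumes that most genes are level, set these medians at -0.02, -0.07, -0.02 and -0.07. Fold changes below are from edgeR's quasi-likelihood fit across all genes, and a gene was called at an adjusted p of at most 0.05 and a change of at least 1.5-fold. In these bulk samples, more cells carrying a transcript and more transcript per cell cannot be told apart.

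FAS transcript was several times higher in every sample that received 5-FU, Combi or SARB, and TQ alone left it near the control level. The 3 control samples held 121, 149.7 and 168 scaled counts, and the TQ samples 139.5, 122 and 114. With 5-FU the values were 629, 639.9 and 645, with Combi 834, 819 and 786, and with SARB 666, 593 and 678. No sample of these 3 groups overlapped the control or TQ samples, and Combi lay above 5-FU and SARB, which overlapped each other. The log2 fold change against control was 2.12 (SE 0.13) with 5-FU and -0.24 (SE 0.14) with TQ, and both are given as descriptions, since the first helped to choose the gene. The TQ value changed sign to 0.24 under TMM scaling, so no direction is given for it. Against control, FAS rose by 2.47 on the log2 scale with Combi (SE 0.13, edgeR adjusted p = 3.32e-12) and by 2.14 with SARB (SE 0.13, edgeR adjusted p = 2.77e-11). These tests share the control samples with the contrasts on which the genes were chosen. Combi shared no cartridge with 5-FU or SARB, so its place above them cannot be told apart from cartridge. With cartridge as a block the log2 fold change of FAS against control was 2.40 with 5-FU, 2.39 with Combi and 2.42 with SARB.

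TNFRSF10A, the TRAIL receptor DR4, was raised in all 4 treated groups. Its control samples held 126, 119 and 139.5 scaled counts, TQ 247, 208 and 181, 5-FU 332, 329.95 and 247, Combi 335, 311 and 303, and SARB 296, 282 and 275. Every treated sample was above every control sample, every TQ sample was below every other treated sample, the highest of them by less than 1 scaled count, and 5-FU overlapped both SARB and Combi, while every SARB sample was below every Combi sample. The log2 fold change was 0.71 (SE 0.16) with TQ and 1.24 (SE 0.15) with 5-FU, and with cartridge as a block the TQ value was 0.73 and no longer called. TNFRSF10A rose by 1.30 with Combi (SE 0.15, edgeR adjusted p = 6.2e-07) and by 1.15 with SARB (SE 0.15, edgeR adjusted p = 4.18e-06).

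TNFRSF10B, the other TRAIL receptor with a full death domain (DR5), followed FAS rather than TNFRSF10A in its order of groups. The control samples held 273, 271 and 314 scaled counts and the TQ samples 345, 299 and 213, so that TQ spanned the control range on both sides. The 5-FU samples held 560.5, 523 and 474, the Combi samples 633, 664 and 588, and the SARB samples 559, 449 and 572. All 9 of these lay above all control samples, and the 3 Combi samples lay above the 5-FU and SARB samples, which overlapped. Combi shared no cartridge with 5-FU or SARB, so its place above them cannot be told apart from cartridge. Its log2 fold change was 0.86 (SE 0.15) with 5-FU and -0.01 (SE 0.16) with TQ, and the latter became 0.46 under TMM scaling. It rose by 1.13 with Combi (SE 0.15, edgeR adjusted p = 4.07e-06) and by 0.89 with SARB (SE 0.15, edgeR adjusted p = 8.17e-05), the smallest receptor change in each of these 2 groups.

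TNFRSF10C, the lipid-anchored decoy, started lowest above background and had the largest fold change of the 7 genes with 5-FU and with SARB. It held 67.5, 49.9 and 60.5 scaled counts in control, 68.6, 77.1 and 83.6 with TQ, and 493, 420.4 and 419.7 with 5-FU. Combi samples held 323, 290.4 and 244 and SARB samples 404, 284 and 344. The 5-FU samples were the highest of all 15, and Combi and SARB overlapped below them. The 5-FU dose was 15 µM in the 5-FU group and 35 µM in Combi, which also held TQ and shared no cartridge with 5-FU. Dose, TQ and cartridge cannot be told apart here. The log2 fold change was 2.91 (SE 0.18) with 5-FU and 0.38 (SE 0.20) with TQ. With cartridge as a block it was 2.72 with 5-FU, 2.55 with Combi and 2.36 with SARB, where FAS was at 2.42. All 3 TQ samples were above all 3 control samples, but the gene was not called in TQ under housekeeping scaling, while TMM scaling gave 0.86 and a call. TNFRSF10C rose by 2.27 with Combi (SE 0.18, edgeR adjusted p = 1.62e-09) and by 2.55 with SARB (SE 0.18, edgeR adjusted p = 2.35e-10).

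TNFRSF10D, the decoy with a truncated death domain and in RefSeq's order a neighbour of the other TNFRSF10 genes on chromosome 8, was raised in every treated group and was the receptor with the largest change with TQ. Control samples held 259, 255 and 296 scaled counts, and TQ samples 495, 525 and 476. The values were 641, 669 and 641 with 5-FU, 763, 735 and 722 with Combi, and 590.03, 471 and 508 with SARB. The groups fell in the order control, TQ and SARB together, 5-FU, and Combi, and only TQ and SARB overlapped among neighbours. The log2 fold change was 0.89 (SE 0.12) with TQ and 1.27 (SE 0.12) with 5-FU. TNFRSF10D rose by 1.45 with Combi (SE 0.12, edgeR adjusted p = 2.5e-09) and by 0.95 with SARB (SE 0.12, edgeR adjusted p = 2.33e-06).

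The 2 ligands were near or under the background limit, and their calls changed with the setting. TNFSF10 had raw counts of 2 to 19 and FASLG of 5 to 30 in the 15 samples. Mean scaled counts of TNFSF10 were 13.9 ± 5.0 in control, 5.91 ± 3.56 with TQ, 5.75 ± 4.32 with 5-FU, 12.0 ± 4.39 with Combi and 8.58 ± 3.2 with SARB (SD, n = 3 each). FASLG held 33.9 ± 12.9 in control, 13.8 ± 7.19 with TQ, 12.7 ± 5.74 with 5-FU, 19.4 ± 12.7 with Combi and 13.9 ± 10.8 with SARB. Groups next to each other in order of their means overlapped in both genes. All 3 TQ samples of TNFSF10 (at most 8.53 scaled counts) were nevertheless below all control samples (at least 10.4), as were 39.5% of all genes, and all 3 5-FU samples of FASLG (at most 18.1) were below all control samples (at least 19.0), as were 27.8% of all genes. In the edgeR fit to all samples neither ligand passed the test with Combi (edgeR adjusted p = 0.781 for TNFSF10 and 0.322 for FASLG) or with SARB (0.283 and 0.0704). FASLG was called lower with SARB without control replicate 1 (-1.69) or without SARB replicate 2 (-2.18), and with TQ without SARB replicate 2 (-1.45) or 3 (-1.46). TNFSF10 was called lower with TQ without TQ replicate 3 (-2.04) or without SARB replicate 3 (-1.56).

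Counted together, edgeR called 2 of the 7 genes higher with TQ, which became 1 with cartridge as a block, and 5 of 7, the 5 receptors, with each of 5-FU, Combi and SARB. In the fit to all 15 samples edgeR called none of the 7 lower against control, whereas on the deposited normalized values limma called FASLG lower with 5-FU. Over all 730 genes, 3.42% were called higher and 21.6% lower with TQ, 10.1% higher and 10.1% lower with 5-FU, 13.6% higher and 6.58% lower with Combi, and 8.63% higher and 20% lower with SARB. For TQ and 5-FU the counts were part of how the genes were chosen, so nothing is read from them. The treated samples were all higher than all control samples for 3 of the 7 genes with TQ (6.16% of all genes), and for 5 of 7 with 5-FU (16.3%), Combi (19.3%) and SARB (13.2%). The median log2 fold change of the 5 receptors was 0.38 with TQ, 1.27 with 5-FU, 1.45 with Combi and 1.15 with SARB.

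**Figure D1:**
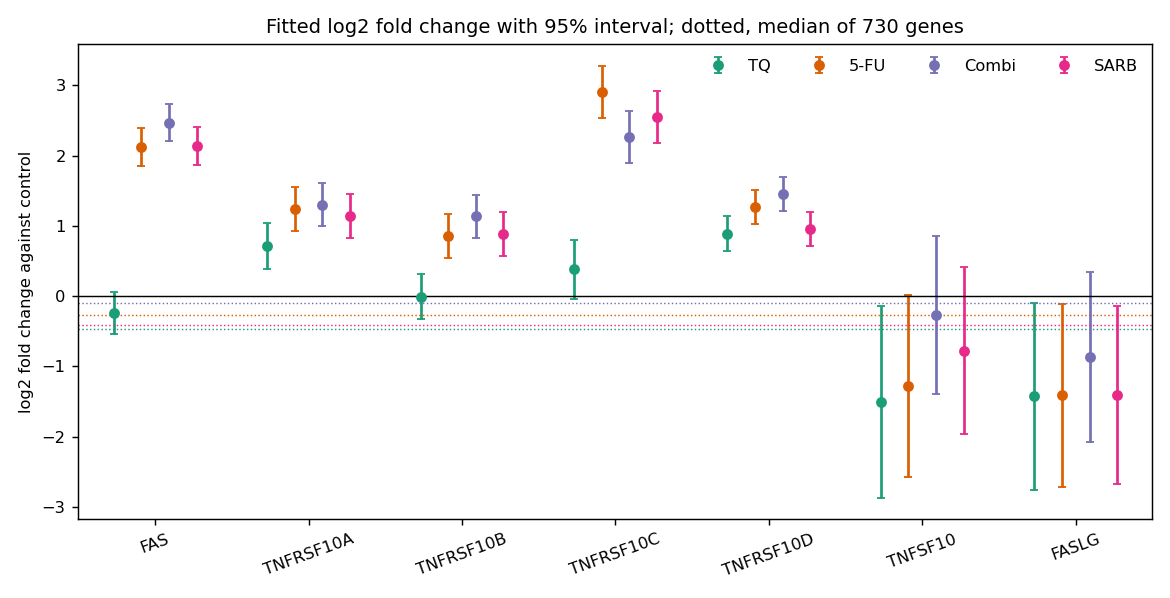
Log2 fold change of each gene against control with its 95% interval, by treatment, with the median of all 730 genes for each treatment as a dotted line (-0.47 to -0.10). The 5 receptors lie above 0 with 5-FU, Combi and SARB, while FAS and TNFRSF10B with TQ lie near 0 and change sign with the scaling, and the intervals of the 2 ligands are wide.

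The samples were run on 3 cartridges, as read from the scanner's sample names. Control replicate 1 shared cartridge 1 with all TQ, 5-FU and SARB samples, control replicates 2 and 3 shared cartridge 2 with Combi replicate 1, and Combi replicates 2 and 3 were alone on cartridge 3. Combi thus shared no cartridge with TQ, 5-FU or SARB. Where the levels of Combi are set beside theirs, treatment and cartridge cannot be told apart. Within cartridge 1, the mean log2 difference of scaled FAS counts was 2.40 with 5-FU, 2.41 with SARB and 0.05 with TQ, against 1 control sample. Within cartridge 2, Combi replicate 1 differed from the 2 control samples by 2.39 for FAS, 1.38 for TNFRSF10A, 1.12 for TNFRSF10B, 2.55 for TNFRSF10C and 1.47 for TNFRSF10D. SARB within cartridge 1 gave 1.17 for TNFRSF10A, 0.94 for TNFRSF10B, 2.34 for TNFRSF10C and 1.00 for TNFRSF10D. These within-cartridge differences lay on both sides of the fitted changes over all samples, and each of the 5 receptors was above control within its cartridge with 5-FU, Combi and SARB.

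SARB and Combi can be set against each other at a matched 35 µM, the hybrid against its 2 components given as separate molecules. Across the 7 genes, 0 were called by edgeR with both criteria, and 2 had an unadjusted p under 0.05, FAS and TNFRSF10D. FAS was 0.33 lower with SARB than with Combi on the log2 scale (SE 0.11, 95% interval -0.56 to -0.09, edgeR adjusted p = 0.0479), and TNFRSF10D was 0.50 lower (SE 0.11, interval -0.73 to -0.27, edgeR adjusted p = 0.00323), both short of 1.5-fold. FAS changed sign to 0.02 under DESeq2's size factors, so no direction is drawn for it. The intervals for the other receptors held 0: -0.43 to 0.12 for TNFRSF10A, -0.54 to 0.04 for TNFRSF10B and -0.02 to 0.58 for TNFRSF10C. The interval of TNFRSF10D reached past a 1.5-fold decrease. Its difference was smaller under TMM scaling (-0.23, edgeR adjusted p = 0.31) and under DESeq2 (-0.16, adjusted p = 0.609). With cartridge as a block it was -0.46 (edgeR adjusted p = 0.997). For TNFRSF10C DESeq2 gave 0.63 and called it higher. Every SARB sample lay below every Combi sample for 4 of the 7 genes, against 28.9% of all genes, and for TNFRSF10A and TNFRSF10B among them the fitted difference turned positive under TMM scaling. Over the panel 0.959% of genes were called higher and 11.2% lower in SARB than in Combi, with a median of -0.32 under housekeeping scaling. SARB and Combi shared no cartridge, so compound and cartridge cannot be told apart here.

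Ratios of 2 receptors within a sample do not depend on the scaling. The probes of 2 genes can differ in efficiency, so only the change of a ratio between groups is read and not its size. The log2 ratio of TNFRSF10C to TNFRSF10A was -1.12 ± 0.19 in control (SD, n = 3), -1.47 ± 0.37 with TQ, 0.56 ± 0.21 with 5-FU, -0.16 ± 0.14 with Combi and 0.26 ± 0.22 with SARB. Every 5-FU, Combi and SARB sample was above every control sample. The difference from control was 0.97 for Combi and 1.39 for SARB, and SARB was 0.42 over Combi. On cartridge 1 the control sample held -0.90 and SARB 0.45, 0.01 and 0.33. On cartridge 2 the control samples held -1.26 and -1.21 and Combi replicate 1 -0.06. With cartridge as a block, SARB against Combi gave -0.19 for TNFRSF10C and -0.21 for TNFRSF10A. Compound and cartridge cannot be told apart in ratios of SARB against Combi. The ratio of TNFRSF10D to TNFRSF10A was 1.07 ± 0.03 in control, 1.24 ± 0.21 with TQ, 1.11 ± 0.23 with 5-FU, 1.23 ± 0.03 with Combi and 0.87 ± 0.13 with SARB. Its difference was 0.15 for Combi against control, -0.20 for SARB against control and -0.35 for SARB against Combi, with no overlap between the groups in any of these.

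With TNFRSF10B as the denominator, chosen after the data were seen, the ratio for TNFRSF10C was again above control, by 1.14 with Combi and 1.66 with SARB. The ratio of TNFRSF10D to TNFRSF10B was -0.08 ± 0.01 in control, 0.83 ± 0.32 with TQ, 0.33 ± 0.12 with 5-FU, 0.24 ± 0.08 with Combi and -0.01 ± 0.14 with SARB. TQ therefore gave the highest values of this ratio, 0.52, 0.81 and 1.16 in its 3 samples. The ratio of FAS to TNFRSF10A was 0.18 ± 0.21 in control, -0.75 ± 0.08 with TQ, 1.09 ± 0.26 with 5-FU, 1.36 ± 0.04 with Combi and 1.18 ± 0.12 with SARB. TQ samples thus lay below control in this ratio and the other treated groups above it, with no overlap. FAS with 5-FU, and TNFRSF10A and TNFRSF10D with TQ, helped to choose the genes. Ratios of these genes with TQ or 5-FU partly restate that choice, so nothing is read from them. Over the 18 ratio comparisons of Combi, SARB and control, 16 had an exact permutation p = 0.1 (two-sided, adjusted 0.1125), the smallest that 3 against 3 samples allow, so none could pass 0.05. The other two were TNFRSF10D to TNFRSF10B for SARB against control (exact p = 0.4) and FAS to TNFRSF10B for SARB against Combi (exact p = 0.3).

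The genes whose log2 scaled counts followed a receptor most closely over the 15 samples are a description, since the samples share treatments, cartridges and scaling. The order depended on the scaling. Under TMM scaling SFN was at rank 7 for TNFRSF10A, NGFR at rank 5 for TNFRSF10B and LAMA3 at rank 6 for TNFRSF10C. MDM2 and CDKN1A kept ranks 1 and 2 for FAS. The values below are under housekeeping scaling. FAS was followed by MDM2 (Pearson r = 0.988), a ubiquitin ligase, by CDKN1A (0.980), the cell cycle inhibitor p21, and by LAMA3 (0.971), a laminin chain. Nearest to TNFRSF10A were the laminin chain LAMB3 (0.962), SFN (0.917), which encodes 14-3-3 sigma, and the stress gene GADD45A (0.916). TNFRSF10B had IL12A (0.946), a subunit of interleukin-12, then MDM2 (0.939) and NGFR (0.934) as its nearest genes. TNFRSF10C had SFN (0.977), the adaptor SHC1 (0.964) and LAMA3 (0.963), and TNFRSF10D had GADD45A (0.944), the AP-1 subunit FOSL1 (0.906) and LAMB3 (0.900). Among the receptors themselves, FAS went with TNFRSF10B (0.958) and TNFRSF10C (0.938), and TNFRSF10A with TNFRSF10D (0.935), while FAS and TNFRSF10D were the least alike pair (0.747).

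Of 11 genes known to be raised after DNA damage and listed for comparison, 5 were on the panel. All 5 were called higher with 5-FU, Combi and SARB, against 10.1%, 13.6% and 8.63% of all genes. The list was chosen with earlier results of these data known. The paper itself reports GADD45A, CDKN1A and SFN as raised by 5-FU, so nothing is read from the count. It also reports FAS and BAX as raised by 5-FU. Its supplement lists NGFR, described below, with positive fold changes under 5-FU and Combi. With TQ, SFN and THBS1, an inhibitor of vessel growth, were called higher while CDKN1A was called lower. Of all genes, 3.42% were called higher and 21.6% lower with TQ. CDKN1A was 0.95 lower on the log2 scale with TQ under housekeeping scaling (SE 0.18, edgeR adjusted p = 0.000671). The median of all genes with TQ was -0.47 under that scaling and -0.02 under TMM, and CDKN1A is given here under housekeeping scaling only. Its mean was 1004 ± 304 scaled counts in control, 519.7 ± 20.9 with TQ and 6441 ± 533 with Combi (SD, n = 3).

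Downstream of the receptors, 8 listed genes of the death pathway were examined, and edgeR called at most 2 of them in any comparison in the fit to all samples. Neither initiator caspase was called by edgeR in any comparison in the fit to all samples. CASP8, which FADD recruits to the receptor, held 341 ± 46.9 scaled counts in control, 239.6 ± 10.5 with TQ, 284 ± 44.8 with 5-FU, 433 ± 37.6 with Combi and 329 ± 52.7 with SARB (SD, n = 3). CASP10 was near background throughout, with group means of 12.4 to 32.5. BAX, the pore former of the mitochondrial outer membrane, was called higher in 3 groups. It rose by 1.11 with 5-FU (edgeR adjusted p = 1.28e-06), by 1.73 with Combi (adjusted p = 1.12e-09) and by 1.41 with SARB (adjusted p = 3.64e-08), from 653 ± 75.7 scaled counts in control to 1410 ± 169, 2170 ± 267 and 1740 ± 219. BID, which caspase-8 cleaves to link the receptors to mitochondria, went from 216 ± 14.2 scaled counts in control to means between 144 and 178 in the treated groups. It was not called by edgeR in the fit to all samples, while limma on the deposited values called it lower with TQ (-0.64, adjusted p = 0.00601). TMM scaling gave -0.11 with TQ, -0.09 with 5-FU, -0.37 with Combi and -0.01 with SARB, with no call. DESeq2 gave -0.06 with TQ and no call.

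Among inhibitors, BCL2L1 (BCL-XL), which restrains BAX, rose by 0.88 with 5-FU (SE 0.12, edgeR adjusted p = 8.11e-06), from 1206 ± 103 to 2217 ± 133 scaled counts, and its mean was 1324 ± 120 with Combi and 1714 ± 265 with SARB. With SARB it was 0.51 above control and short of 1.5-fold, but was called at 0.84 under TMM scaling and under DESeq2. Both of these also called it higher in SARB than in Combi (0.62 and 0.69), where housekeeping scaling gave 0.37 and no call. BCL2, with group means of 24.7 to 38.1 scaled counts, was not called by edgeR in the fit to all samples. With SARB it was called higher under TMM scaling (0.94), under DESeq2 (0.95) and by limma on the deposited values (1.66). With 5-FU limma also called it higher (1.52). BIRC3 (cIAP2) is a ubiquitin ligase that restrains caspase-8 activation. It was called 1.29 lower in SARB than in Combi on the log2 scale (SE 0.44, edgeR adjusted p = 0.0478), with 11.3 ± 2.25 against 28.5 ± 6.12 scaled counts. The background limits were 12.9, 32.9 and 5.43 scaled counts in the SARB samples and 29.8, 12.8 and 15.5 in the Combi samples. That call was lost under TMM scaling (-0.98, adjusted p = 0.102), under DESeq2 (-0.92, adjusted p = 0.179), with the replicate number as a block, and in most fits that left out 1 sample. With cartridge as a block it was lost and the difference changed sign to 0.75 (edgeR adjusted p = 0.997). Against control, BIRC3 was 1.26 higher with Combi and not called (edgeR adjusted p = 0.0521). TMM scaling (1.35), DESeq2 (1.30) and limma on the deposited values (2.57) called it higher there. The paper lists BIRC3 among the genes altered by Combi. In all, 0 of 8 pathway genes were called with TQ by edgeR (4 had an unadjusted p under 0.05, all lower, and DESeq2 called 0 and limma 1), 2 with 5-FU, 1 with Combi and 1 with SARB. TMM scaling gave 2 with Combi and 3 with SARB. The list's median log2 fold change was -0.50 with TQ, -0.09 with 5-FU, 0.27 with Combi and -0.05 with SARB, each beside the median of all genes given above.

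Of 17 other genes of the TNF and TNF receptor families listed, 3 were on the panel. NGFR, the neurotrophin receptor p75 with a death domain of its own, rose by 2.14 with 5-FU, 2.54 with Combi and 1.51 with SARB (edgeR adjusted p = 2.85e-09, 9.62e-11 and 7.35e-07), and its level was 70.3 ± 10.8 scaled counts with TQ against 67.1 ± 2.09 in control. It was called lower in SARB than in Combi, by -1.03 (SE 0.14, edgeR adjusted p = 5.94e-05), with 193 ± 23.0 against 389 ± 62.6 scaled counts, a call that was lost with cartridge as a block (-0.81, adjusted p = 0.997). TNF was near background, and CD40, a receptor with no death domain, was not called by edgeR in the fit to all samples, while DESeq2 called it higher with TQ (0.59, adjusted p = 0.0186).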

How the data were processed

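Gene expression was measured with the nCounter PanCancer Pathways panel from 50 ng of total RNA a sample, in 5 groups of 3 samples grouped by their titles. The authors deposited raw barcode counts and, separately, a normalized signal from nSolver 3.0, background subtracted and scaled to the housekeeping genes. A deposited table of fold changes and p-values was not used. Counts of 730 genes in all 15 samples were fitted in edgeR 4.0.16 (glmQLFit, glmQLFTest, R 4.3.3) with offsets from 40 housekeeping genes and Benjamini-Hochberg adjustment over 730 genes. Calls required an adjusted p of at most 0.05 and 1.5-fold. The code was tested on simulated data.

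Alternatives were TMM, DESeq2 1.42.0, the cartridge or replicate number as a block, counts under 20 set to 20, genes with a mean of at least 20 counts, limma 3.58.1 on log2(signal + 1) of the deposited values, and leaving out each sample. Named were all 7 members, pathway and TNF family genes called in any comparison (the largest 6 of a comparison), and the 3 genes most correlated with each receptor. CASP8, CASP10, BID, BCL2, CD40, TNF, THBS1 and CDKN1A were named after their values were seen. Members and lists were chosen with earlier results of these data known, so no p is printed for members in TQ or 5-FU against control. No 2 samples agreed within sampling noise. Probe sequences were not given in the sources used here, and capture of one TNFRSF10 transcript by the probes of another was not tested. Some genes of the death pathway are not reported here. Motifs were searched on both strands.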

Additional observations from a re-analysis of the deposited data

How the results depend on the processing

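Of 17 receptor calls against control, 17 remained under TMM, DESeq2, the floor of 20 counts, the filter at a mean of 20 counts, the deposited values and every left-out sample. They also remained with the replicate number as a block, which among members and pathway genes changed only the call of BIRC3 in SARB against Combi (0 pathway genes called). Same-numbered samples had deviations correlated from -0.678 to 0.389 over 30 pairs, with 9 pairs over 0.1. Whether the numbers mark paired samples cannot be settled from this range. With cartridge as a block 16 remained and TNFRSF10A with TQ (0.73) was lost, leaving 1 gene called there. Of the 17, the 2 with TQ and the 5 with 5-FU were in contrasts that helped to choose the genes. Nothing is read from their being kept. Over left-out samples the TQ count ran from 2 to 4, the 4 (without SARB replicate 3) being the 2 receptors called higher and both ligands called lower.

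Several log2 fold changes changed sign. With TQ, FAS became 0.24 under TMM, 0.28 under DESeq2 and 0.034 with the cartridge block, and TNFRSF10B 0.46, 0.50 and 0.058, with -0.13 to 0.16 over left-out samples (0.066 without control replicate 3, 0.16 without TQ replicate 3). For SARB against Combi, FAS became 0.02 under DESeq2 and 0.024 with the cartridge block, TNFRSF10A 0.11 under TMM and 0.18 under DESeq2, TNFRSF10B 0.029 and 0.11, TNFRSF10C -0.19 with the cartridge block and TNFSF10 0.30 with the floor of 20 counts. Ligands at background turned too: TNFSF10 with Combi became 0.11 with the cartridge block and 0.021 on the deposited values, with -0.56 to 0.074 over left-out samples (0.074 without control replicate 2), and FASLG in SARB against Combi ranged from -1.30 to 0.074 (without Combi replicate 1). DESeq2 called 1 member in SARB against Combi, TNFRSF10C, and leaving out samples gave 0 to 1 (TNFRSF10D, without SARB replicate 1).

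Called pathway genes numbered 1 with TQ on the deposited values, and 0 to 2 over left-out samples (2 without control replicate 1 or TQ replicate 3). With Combi there were 2 under TMM, DESeq2 and the deposited values, and 1 to 2 over left-out samples. With SARB there were 3 under TMM, 3 under DESeq2 and 2 on the deposited values, and 1 to 2 without single samples (2 without SARB replicate 2 or 3). In SARB against Combi the 1 call, BIRC3, became 0 with either block, the floor and the filter, and 0 to 1 over left-out samples. Under TMM and DESeq2 the 1 gene called there was BCL2L1, higher in SARB. Subtracting the geometric mean of the negative probes moved the TNFRSF10C to TNFRSF10A difference to 1.23 with Combi and 1.65 with SARB. It moved that of TNFRSF10D to TNFRSF10A to 0.081 with Combi. The cause of these moves was not tested. Depth limits the 2 ligands, CASP10, BCL2, BIRC3 and TNF, which lie near background.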
